A study of Mus musculus with 4 samples.

Results

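The genes described here are those of the pituitary hormones prolactin, growth hormone and thyrotropin beta, the transcription factor POU1F1 that their cells share, and 3 further markers of those cells. They are Prl, Gh, Tshb, Pou1f1, Dio2, Gal and Edil3, chosen by name from the deposited gene table through a GENCODE mm10 annotation, and make up 7 of its 54532 genes. All 7 passed the filter on low counts, as did 17349 genes in all. Their transcripts were measured by poly(A) RNA sequencing of purified gonadotropes, the pituitary cells that make luteinizing and follicle-stimulating hormone, from male mice of mixed strain aged 10 to 12 weeks. One group of 2 libraries carried the genotype labelled GATA2 cKO, a conditional knockout, and the other group of 2 was labelled control. The knockout is called gonadotrope-specific in the study's title. What drives the deletion, which alleles the controls carry and how many animals a library holds could not be learned from the labels. The scatter behind each p-value is that of these libraries, and part of it may be technical. Where 1 library was left out, its group held a single library, which was assumed to vary like the 2 of the other group, so calls from those fits have no replicate check in that group. The sample labels speak of cells isolated by flow cytometry, but the design text of the series names pituitaries in bulk.

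POU1F1, also called Pit-1, is a POU-homeodomain transcription factor that somatotropes, lactotropes and thyrotropes need in order to form, and mice that lack it are dwarfs without these cells. It binds and activates the promoters of growth hormone, prolactin and thyrotropin beta. Gonadotropes belong to another pituitary lineage, which uses the factors NR5A1 and GATA2, and GATA2 also acts with POU1F1 at the thyrotropin beta promoter in thyrotropes. The comparison of cKO with control gonadotropes asks which transcripts differ when Gata2 is deleted. For the present genes it was read as levels in each library and as the ratio of each transcript to Pou1f1.

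Promoters of 3 of these genes are shown because 2 of them, Prl and Pou1f1, had nearly the same profile over the libraries, while Tshb stood on the other side of zero. Each window runs from 250 bases before to 50 bases after the RefSeq start site on GRCm38.p6 (mm10). Capitals mark matches on either strand to TATNCAT, the core of the known POU1F1 motif. They also mark matches on either strand to AGATAA, which GATA factors bind. No marked matches overlap.
Prl, chr13:27057320-27057619, plus strand: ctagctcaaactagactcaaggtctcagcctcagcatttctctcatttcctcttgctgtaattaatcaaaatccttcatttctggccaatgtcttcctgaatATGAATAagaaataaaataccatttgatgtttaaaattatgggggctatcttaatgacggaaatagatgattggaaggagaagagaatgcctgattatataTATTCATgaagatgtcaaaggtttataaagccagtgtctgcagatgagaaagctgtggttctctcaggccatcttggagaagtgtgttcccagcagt
Pou1f1, chr16:65520262-65520561, plus strand: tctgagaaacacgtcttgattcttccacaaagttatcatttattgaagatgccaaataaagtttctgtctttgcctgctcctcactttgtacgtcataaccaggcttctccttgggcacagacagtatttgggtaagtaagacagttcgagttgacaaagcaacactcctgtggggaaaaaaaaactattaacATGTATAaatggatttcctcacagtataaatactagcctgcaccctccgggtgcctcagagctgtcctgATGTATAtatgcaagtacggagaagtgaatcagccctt
Tshb, chr3:102782665-102782964, minus strand: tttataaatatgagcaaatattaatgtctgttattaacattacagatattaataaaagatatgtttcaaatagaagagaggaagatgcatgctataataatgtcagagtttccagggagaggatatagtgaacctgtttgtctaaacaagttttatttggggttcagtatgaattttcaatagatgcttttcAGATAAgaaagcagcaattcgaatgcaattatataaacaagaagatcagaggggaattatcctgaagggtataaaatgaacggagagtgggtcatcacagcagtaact
The Prl window held 2 matches to TATNCAT, at 47 to 41 and at 148 to 142 bases before the start site. The Pou1f1 window held 2 as well, 1 of them 57 to 51 bases before the start site and 1 after it. The Tshb window held none, and 1 match to AGATAA at 58 to 53 bases before the start site. Of the other windows, that of Dio2, whose RefSeq start lies 600 bases from the GENCODE one, held 1 match to TATNCAT and that of Gal held none to either motif. Of 32817 promoter windows of this length, 8.84% held at least 1 match to TATNCAT, 1.51% held 2 or more, and 11.2% held a match to AGATAA. No window was available for Gh or Edil3. All matches given here are letter matches in short windows and not measured binding. Dio2 and Gal, whose promoters are not shown, were both higher in cKO. Whether matches go with the direction of change was not tested.

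Total estimated counts were 15541553 and 18362182 in the cKO libraries and 10646909 and 21135301 in the controls. Levels are counts per 1000000 counts of the library (CPM), scaled with TMM factors. Gata2 fell to 221 and 214 CPM in cKO, against 537 and 526 CPM in controls (log2 fold change -1.29, SE 0.14, edgeR adjusted p = 0.0473). The 10 gonadotrope markers summed to 7160 and 8570 CPM in cKO and to 15890 and 14370 CPM in controls, and every one of them had counts in at least 3 of the 4 libraries. Control replicate 1 stood apart from the others, with correlations of log2 CPM across genes of 0.841 to 0.889 against 0.902 to 0.928 for the remaining pairs. Xist, on the X chromosome, had no count in cKO and 57 and 38 counts in controls (edgeR adjusted p = 0.683). Ddx3y, on the Y chromosome, had 148 and 135 CPM in cKO and 139 and 146 CPM in controls. What lies behind the Xist counts was not tested. In bulk libraries, fewer cells of a type and less RNA per cell cannot be told apart.

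Pou1f1 transcripts were higher in both cKO libraries than in either control. Pou1f1 (ENSMUSG00000004842.18, mm10 chromosome 16, 65520511 to 65535005, plus strand) had 326 and 349 counts in cKO and 43 and 202 counts in controls. Scaled, these were 20.96 and 19.62 CPM in cKO and 3.91 and 9.653 CPM in controls. The cKO libraries differed by a factor of 1.07 from each other and the controls by a factor of 2.47, with control replicate 1 the lower. The mean was 20.3 ± 0.953 CPM in cKO and 6.78 ± 4.06 CPM in controls (SD, n = 2 each), 2.99 times as high. Its log2 fold change of 1.57 (SE 0.62) did not pass edgeR's quasi-likelihood test over all genes (adjusted p = 0.692). The log2 fold change was 1.06 without control replicate 1, which held the lowest value, and 2.38 without control replicate 2.

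Prolactin transcripts followed the same order. Prl (ENSMUSG00000021342.14, chromosome 13, 27057570 to 27065205, plus strand) codes for the hormone of lactotropes and had 1249 and 1271 CPM in cKO, against 312 and 583 CPM in controls. It ranked 50 and 54 among all genes by CPM in the cKO libraries and 373 and 128 in controls. The cKO libraries were within a factor of 1.02 of each other, and the control libraries differed by 1.87, so the groups did not overlap. On the log2 scale it was higher by 1.49 (SE 0.27, adjusted p = 0.248 by edgeR), and 0.300% of the tested genes had a smaller p. Leaving out 1 library gave log2 fold changes of 1.11 to 2.02, and Prl was called in those 4 fits, each with a single library in 1 group. With all libraries it was called by DESeq2 (adjusted p = 0.00898), limma-voom (adjusted p = 3.69e-13) and edgeR's newer quasi-likelihood form (adjusted p = 0.0164). It did not pass in the main test with all libraries.

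The other 2 lactotrope markers were higher in cKO too. Edil3 (ENSMUSG00000034488.14, chromosome 13, 88821472 to 89323223, plus strand) codes for a secreted matrix protein that binds integrins. It had 35.1 and 26.1 CPM in cKO and 9.82 and 6.98 CPM in controls, with a difference of 1.87 on the log2 scale (SE 0.46, adjusted p = 0.492 by edgeR). Its mean in cKO was 3.64 times the control mean. Gal (chromosome 19, 3409915 to 3414544, minus strand) codes for galanin, a neuropeptide that rodent lactotropes make under oestrogen. It had 32.4 and 40.1 CPM in cKO and 17.6 and 19.1 CPM in controls, with a difference of 0.98 on the log2 scale (SE 0.35, adjusted p = 0.653 by edgeR). For both genes the cKO libraries lay above the controls and neither passed the test.

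**Figure D1:**
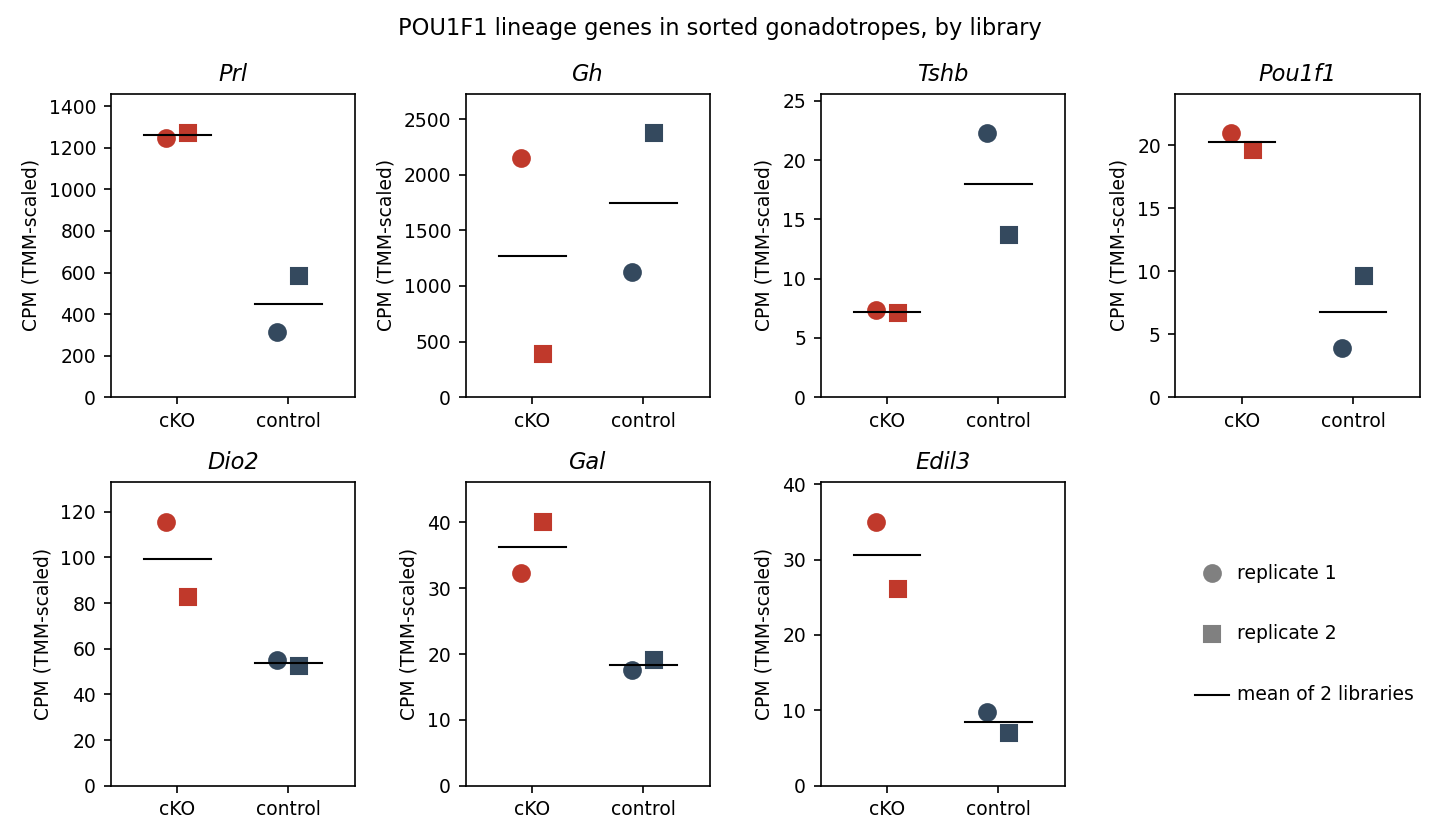
TMM-scaled CPM (vertical axes, from 0, a scale per gene) of the 7 genes in each library, with circles for replicate 1, squares for replicate 2 and lines for the mean of 2 libraries. Prl, Pou1f1, Dio2, Gal and Edil3 lay higher in both cKO libraries than in either control, Tshb lay lower, and Gh overlapped, with 2149 and 385 CPM in cKO.

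Growth hormone did not follow prolactin. Gh (ENSMUSG00000020713.6, chromosome 11, 106300271 to 106301865, minus strand) codes for the hormone of somatotropes and had 2149 and 385 CPM in cKO, against 1124 and 2375 CPM in controls. The cKO libraries differed from each other by a factor of 5.58 and bracketed the lower control, so the groups overlapped. The difference of -0.47 on the log2 scale was smaller than its SE of 0.69 (adjusted p = 0.999 by edgeR). Its size and direction depended on which library was used. It was -2.18 without cKO replicate 1, when the library at 385 CPM stood alone for cKO and the spread came from the 2 controls, 0.29 without cKO replicate 2, -0.91 without control replicate 1 and 0.17 without control replicate 2. On the log2 scale the gap between the cKO libraries was 2.48, wider than that of 98.9% of the 94 genes with an average level within 1 log2 unit of Gh. Gh itself is counted among the 94, so none of the others had a gap as wide. The gap between controls was also wider than in 98.9% of those genes, with control replicate 1 lower by 1.08 on the log2 scale (log2 difference -1.08).

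The receptor through which somatotropes are driven went another way than Gh in cKO replicate 1. Ghrhr, the receptor of growth hormone-releasing hormone and a known POU1F1 target, had 0 and 1 counts in cKO and 95 and 80 counts in controls. Over each group this was 0.0300 CPM in cKO and 5.48 CPM in controls, a ratio of 0.00547 (95% exact interval 0.00014 to 0.0309, counting error only). It did not pass the edgeR test over all genes (adjusted p = 0.606). Ghrhr was thus at 0 in the cKO library with 33415 Gh counts. Neurod4, a bHLH factor gene of developing somatotropes, had 22.4 and 56.1 CPM in cKO and 5.09 and 18.0 CPM in controls (log2 fold change 1.76, SE 0.69, edgeR adjusted p = 0.684). Summed without Gh, the 8 somatotrope markers had 99.6 and 135 CPM in cKO and 82.0 and 80.3 CPM in controls. These sums did not share the low value of Gh in cKO replicate 2, but in cKO they were mostly Gpr101 (48.6 and 50.1 CPM) and Neurod4. Single markers differed. Pappa2 had 8.87 and 1.80 CPM in cKO and 0 and 8.79 CPM in controls. Kcnmb2 was also lower in cKO replicate 2 (17.6 and 13.6 CPM in cKO), whereas Rxrg was higher there (2.12 and 13.3 CPM in cKO).

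Of the thyrotrope genes, Tshb was lower and Dio2 higher in cKO. Tshb (ENSMUSG00000027857.10, chromosome 3, 102775465 to 102782718, minus strand) codes for the thyrotropin subunit that sets this hormone apart from the gonadotropins. It had 7.33 and 7.08 CPM in cKO, from 114 and 126 counts, and 22.3 and 13.7 CPM in controls, from 245 and 287 counts. The cKO mean was 0.400 times the control mean, the groups did not overlap, and the difference was -1.32 on the log2 scale (SE 0.57, adjusted p = 0.705 by edgeR). Tshb was the 1 gene of the 7 that lay below the controls in both cKO libraries. Without control replicate 1, which was the higher control, the log2 fold change was -0.94. Its locus overlaps Tspan2 on the opposite strand, with 0 shared exon bases, and whether counting used strand is not stated in the labels.

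Dio2 (ENSMUSG00000007682.6, chromosome 12, 90724552 to 90738438, minus strand) codes for the deiodinase that turns thyroxine into the active thyroid hormone and takes part in feedback on thyrotropes. It had 116 and 82.7 CPM in cKO and 54.9 and 52.6 CPM in controls, with a difference of 0.88 on the log2 scale (SE 0.25, adjusted p = 0.559 by edgeR). The controls were within a factor of 1.04 of each other and the groups did not overlap. Dio2 shares 100 exon bases with the opposite-strand gene Gm26512, which had 2 and 123 counts in cKO and 0 and 29 in controls, against 1800 and 1471 counts of Dio2 in cKO and 604 and 1101 in controls. Dio2 was thus higher where Tshb was lower, in the same libraries.

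None of the 7 genes passed edgeR's quasi-likelihood test at an adjusted p under 0.05, where 0.0576% of the 17349 tested genes did. At an unadjusted p under 0.05 there were 5, all higher, against 7.04% of tested genes in either direction and 3.15% that were higher. DESeq2 called 4 of them, Prl, Dio2, Gal and Edil3, against 5.55% of tested genes, and limma-voom called 2, Prl as higher and Gh as lower, against 1.48%. Prl alone was called without a filter on low counts, against 1.04% of genes, and with edgeR's newer form, against 0.271%. None was called with the replicate number as a block, against 0.0403%. Prl alone was called without control replicate 1 (0.32% of genes), without control replicate 2 (3.5%) and without cKO replicate 2 (0.503%), and Prl and Gh were called without cKO replicate 1 (0.361%), all from fits with a single library in 1 group. The groups did not overlap for 6 of the 7, against 39.0% of tested genes. Of these 5 were higher in cKO (19.7% of tested genes) and 1 was lower (19.3%). The median log2 fold change of the 7 was 0.98, and that of all tested genes 0.03.

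**Figure D2:**
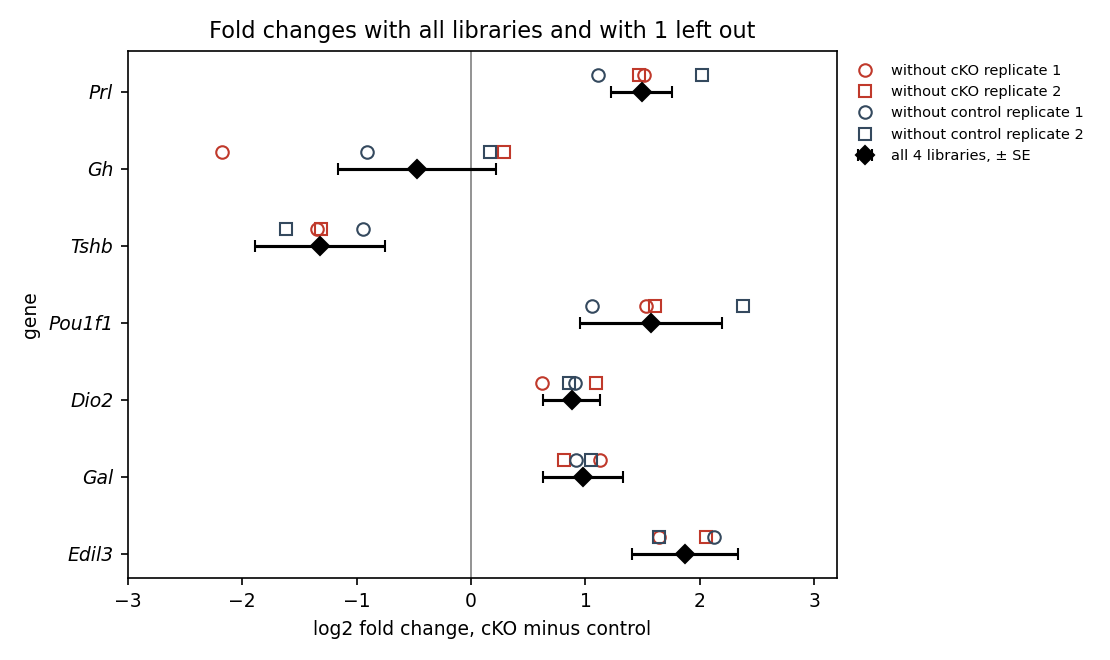
Log2 fold change (cKO minus control, horizontal axis) of the 7 genes (vertical axis) with all libraries (diamonds, bars ± SE) and with 1 library left out (open symbols). Gh is the 1 gene whose open symbols lie on both sides of 0, from -2.18 to 0.29, and those of Prl lie between 1.11 and 2.02.

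The ratio of prolactin to Pou1f1 transcripts overlapped between the groups. There were 59.6 and 64.8 Prl counts for each Pou1f1 count in the cKO libraries, with 95% exact intervals of 53.4 to 66.7 and 58.3 to 72.2. The controls had 79.8 (59.1 to 110) and 60.3 (52.5 to 69.7). All 4 intervals overlapped. They hold counting error alone, because PCR copies could not be told from separate molecules. The mean log2 ratio was 5.96 ± 0.09 in cKO and 6.11 ± 0.28 in controls (SD, n = 2 each), a difference of -0.15 (exact permutation test, two-sided, p = 0.667). With 2 libraries a group this test cannot go below 0.333. Ratios within a library do not depend on how libraries are scaled.

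The other 2 hormones were lower relative to Pou1f1 in cKO, where Pou1f1 itself was higher (log2 fold change 1.57). A gene with an unchanged level therefore also has a lower ratio there. How many of all genes have such a ratio was not counted. On their own, the log2 fold changes were -0.47 for Gh and -1.32 for Tshb. Gh had 102 and 19.6 counts for each Pou1f1 count in cKO and 288 and 246 in controls. The mean log2 ratio of Gh to Pou1f1 differed by -2.56 between cKO and controls, and the groups did not overlap (exact permutation p = 0.333, the smallest possible). Tshb had 0.350 and 0.361 counts for each Pou1f1 count in cKO and 5.70 and 1.42 in controls, a log2 difference of -2.99 (exact permutation p = 0.333). The 2 cKO libraries had almost the same Tshb ratio, while the controls were 1.99 apart on the log2 scale. Against Prl in place of Pou1f1, a pairing chosen after the values were seen, Gh had 1.72 and 0.303 counts in cKO and 3.60 and 4.08 in controls. The Gh ratio was therefore below both controls in both cKO libraries, including cKO replicate 1, where the Gh level itself was within the range of the controls. In that library Pou1f1 and Prl, the genes divided by, were above both controls. Prl (log2 fold change 1.49) had nearly the same profile as Pou1f1, so the ratio to Prl is no separate check.

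The ratios of the 3 other markers overlapped between groups. Dio2 had 5.52 and 4.21 counts for each Pou1f1 count in cKO and 14.0 and 5.45 in controls (exact permutation p = 0.667 for the log2 ratio). Gal had 1.54 and 2.05 in cKO and 4.49 and 1.98 in controls (exact permutation p = 0.667). Edil3 had 1.67 and 1.33 in cKO and 2.51 and 0.723 in controls (exact permutation p = 1.0). For all 3 the highest ratio was that of control replicate 1, which rests on 43 Pou1f1 counts.

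**Figure D3:**
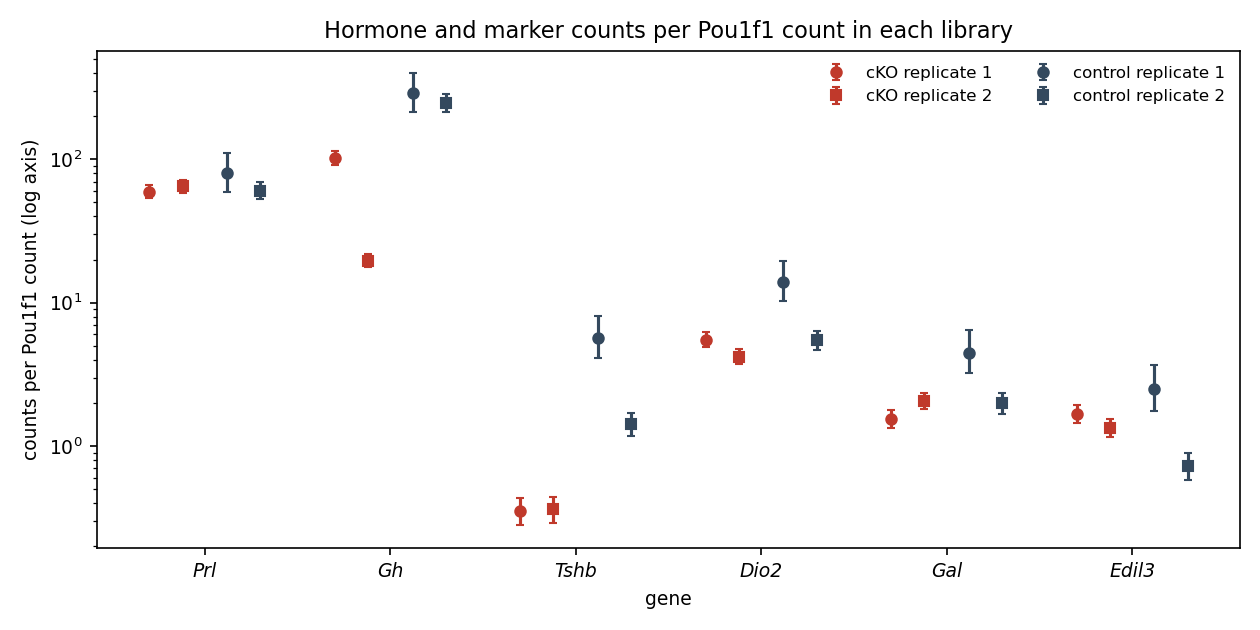
Counts of each gene for each Pou1f1 count (log axis) in the 4 libraries, with 95% exact intervals for counting error. The 4 Prl ratios lie between 59.6 and 79.8, while the Gh and Tshb ratios of both cKO libraries lie below those of both controls. Pou1f1 itself was higher in cKO, which lowers the ratio of any gene with an unchanged level.

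The likeness of Prl and Pou1f1 was also the closest among these genes. Profiles were compared as the root-mean-square difference of centred log2 CPM values over the 4 libraries. It was 0.121 for Prl and Pou1f1, the smallest of the 21 pairs, followed by 0.291 for Dio2 and Gal, and 1.61 for Gh and Edil3, the largest. Among 8544 named genes whose mean log2 CPM was 4 or more, those most like Prl were Myrip (0.126), Crtac1 (0.141) and Sh3bp2 (0.141). Those most like Pou1f1 were Sh3bp2 (0.0673), Efnb3 (0.0822) and Plppr3 (0.101). Sh3bp2, on both lists, had 50.9 and 44.5 CPM in cKO and 9.28 and 20.8 CPM in controls. With 4 libraries many genes can share a profile, so these names describe the libraries and no more.

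The genes most like Gh shared its low value in cKO replicate 2, at larger distances. They were Syt6 (0.287), Slc6a14 (0.316) and Cdh24 (0.363). Syt6, which codes for a synaptotagmin, had 26.2 and 4.27 CPM in cKO and 15.8 and 19.6 CPM in controls. Slc6a14, for an amino acid transporter, had 32.0 and 7.98 CPM in cKO and 21.5 and 29.3 CPM in controls.

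Per length of annotated exons, the levels spanned 3 orders of magnitude. Values here are CPM per 1000 bases of exon (RPKM). In cKO the order of mean levels was Gh (1470 ± 1447 RPKM), Prl (895 ± 11.2), Gal (46.0 ± 6.99), Dio2 (17.1 ± 4.02), Pou1f1 (5.21 ± 0.245), Edil3 (2.24 ± 0.461) and Tshb (1.58 ± 0.0387; SD, n = 2). In controls it was Gh (2030 ± 1026 RPKM), Prl (318 ± 136), Gal (23.2 ± 1.36), Dio2 (9.25 ± 0.281), Tshb (3.95 ± 1.33), Pou1f1 (1.74 ± 1.04) and Edil3 (0.614 ± 0.147; SD, n = 2). Gh and Prl overlapped in cKO, where Gh was above Prl in replicate 1 (2493 against 887 RPKM) and below it in replicate 2 (447 against 903 RPKM). Edil3 and Tshb were neighbours in cKO whose libraries did not overlap, at 2.56 and 1.91 RPKM for Edil3 and 1.61 and 1.56 RPKM for Tshb. Tshb thus stood at the foot of the order in cKO and above Pou1f1 in controls. The order depends on the annotated exon lengths, which were 4555 bases for Tshb, 3891 for Pou1f1 and 13677 for Edil3. These lengths may differ from those of the transcripts present. For comparison, Lhb, the luteinizing hormone beta gene of gonadotropes, had 3052 and 3312 RPKM in cKO and 7586 and 6046 RPKM in controls.

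Other genes of the 3 lineages were read as lists. Of 8 lactotrope markers 7 were tested, and all 7 were higher in cKO, with a median log2 fold change of 0.72 and 0 past the edgeR threshold. Over all tested genes 52.4% were higher. Beyond Prl, Gal and Edil3 the lactotrope markers included Drd2, the dopamine receptor through which prolactin release is held down. It had 33.3 and 27.9 CPM in cKO and 18.3 and 20.5 CPM in controls (log2 fold change 0.66, SE 0.36). Prlr, the prolactin receptor, had 0.41 (SE 0.26), Agtr1a, an angiotensin receptor, 0.54 (SE 0.76), and Angpt1 0.72 (SE 3.74) with no count in 2 libraries. Without Prl, Gal and Edil3 the list summed to 149 and 156 CPM in cKO and to 88.6 and 132 CPM in controls. Groups did not overlap for 4 of the 7, all higher in cKO, against 19.7% of tested genes. These were Prl, Gal and Edil3, already counted among the genes described, and Drd2. For Prlr, Agtr1a and Angpt1 the groups overlapped. At an unadjusted p under 0.05 there were 3, which were Prl, Gal and Edil3 themselves, against 3.15% of tested genes that were higher at such a p.

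Somatotrope and thyrotrope markers were mixed. Of 7 tested somatotrope markers 5 were higher and 2 lower, with a median of 0.25, and 0 passed. Rxrg, a retinoid receptor gene, had 1.03 (SE 1.26) and the receptor gene Gpr101 0.23 (SE 0.32). Of 6 tested thyrotrope markers 5 were higher and 1, Tshb, was lower, with a median of 0.91, and 0 passed. With 1 library left out that median ran from 0.42 (control replicate 1 omitted) to 4.14 (control replicate 2 omitted), and omitting cKO replicate 2 gave 0.55. With the replicate number as a block it was 1.92. Trhr, the receptor of thyrotropin-releasing hormone, had 12.5 and 2.53 CPM in cKO and 0 and 2.39 CPM in controls. Insrr had 22 and 26 counts in cKO and none in controls, at least 15.3-fold higher against a floor of 3 counts over the control group. Nmb had 0.93 (SE 2.44), and the thyroid hormone receptor gene Thrb 0.09 (SE 0.42).

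Of 15 transcription factor genes linked to the POU1F1 lineage, 7 were higher and 8 lower, with a median of -0.03 and 0 past the edgeR threshold. Pitx1, which codes for a homeodomain factor of all anterior pituitary cells, had 209 and 219 CPM in cKO and 725 and 547 CPM in controls (log2 fold change -1.57, SE 0.17, edgeR adjusted p = 0.0575). Lhx4, for a LIM-homeodomain factor, had 0.257 and 11.0 CPM in cKO and 36.7 and 27.2 CPM in controls (log2 fold change -2.50, SE 1.22). Hesx1, an early pituitary repressor gene, had no count in cKO and 43 and 95 counts in controls, at least 48.0-fold lower against a floor of 3 counts over the cKO group. Pou1f1 and Neurod4 were the members at an unadjusted p under 0.05 that were higher, and Pitx1 and Hesx1 those that were lower. Over all tested genes 7.04% reached such a p in either direction, and 3.15% reached it as higher. Other fits called more than the main test. Over all genes, 5.55% were called with DESeq2, 1.48% with limma-voom, 0.271% with edgeR's newer form and 1.04% without a filter. Pitx1 was called as lower by DESeq2, limma-voom, edgeR's newer form, edgeR without a filter and in all 4 fits that left out 1 library. Hesx1 was called by DESeq2, and Lhx4 and Neurod4 by edgeR without a filter and in some of the fits that left out 1 library.

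**Figure D4:**
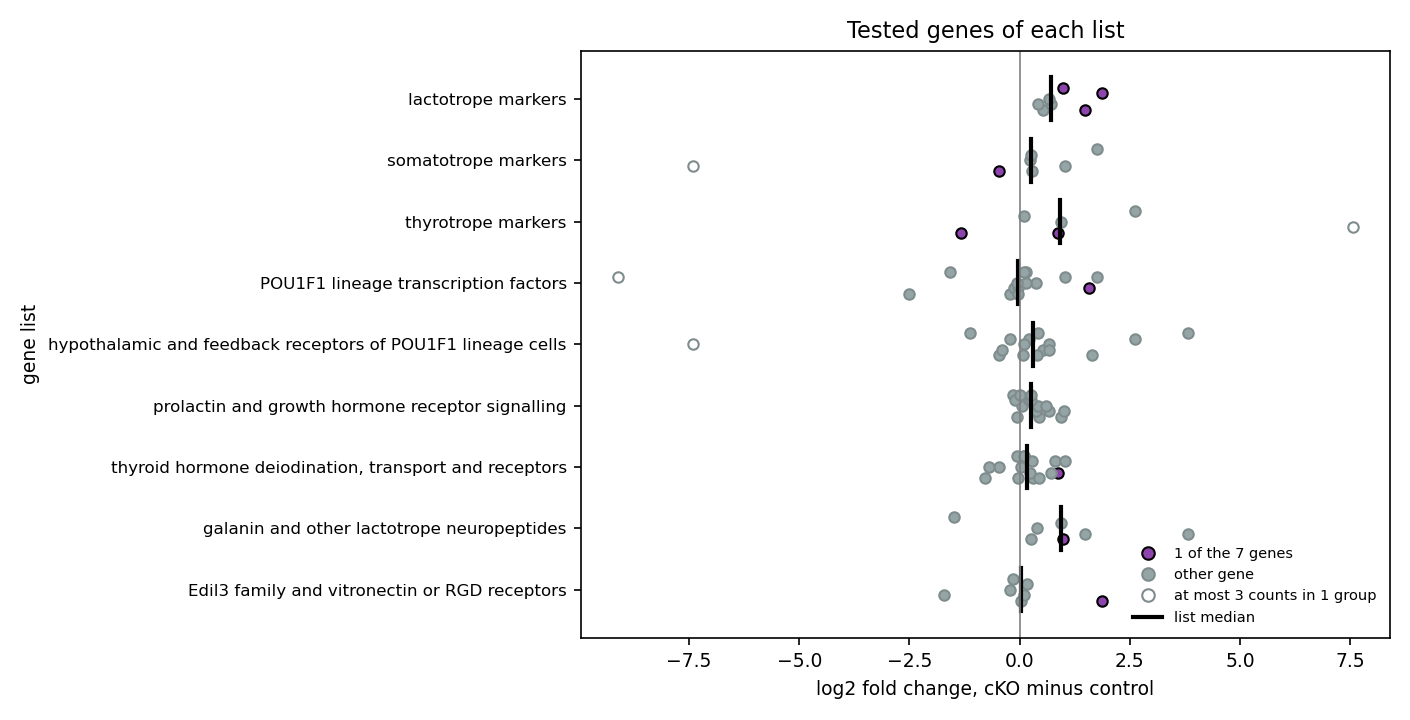
Log2 fold change (cKO minus control, horizontal axis) of every tested gene in 9 lists (vertical axis), with list medians as vertical lines. Open circles mark genes with at most 3 counts in 1 group, whose fitted value is no bound, and the 7 lactotrope markers all lie above 0, with a median of 0.72.

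Receptors and pathways around these hormones showed no gene past the edgeR threshold in the main test, but other fits called some. DESeq2, which called 5.55% of all tested genes, called Ghrhr and Adcyap1r1 as lower and Socs2, Socs3, Irs2, Klf9 and Slc7a5 as higher. Limma-voom called Socs2, Socs3 and Klf9, edgeR without a filter called Socs2 and Klf9, and its newer form called Socs2. Of 16 tested receptors on POU1F1 lineage cells 11 were higher and 5 lower (median 0.31). Besides Ghrhr and Drd2 these included the PACAP receptor gene Adcyap1r1 (-0.48, SE 0.18), with 166 and 207 CPM in cKO and 273 and 248 CPM in controls, and the somatostatin receptor gene Sstr1 (1.64, SE 0.78). Of 15 tested genes of prolactin and growth hormone receptor signalling 11 were higher and 4 lower (median 0.25). Socs2, a feedback inhibitor that growth hormone and prolactin induce through STAT5, had 303 and 299 CPM in cKO and 138 and 161 CPM in controls (log2 fold change 1.01, SE 0.16, edgeR adjusted p = 0.194). Socs3 (0.59, SE 0.20), Irs2 (0.43, SE 0.15) and Socs1 (0.93, SE 0.45) were higher as well. Over the whole list the groups did not overlap for 6 of the 15, all higher in cKO, against 19.7% of tested genes, and these were the 4 named here with Jak2 and Stat5b. Cish, another STAT5 target on the list and named after its values were seen, had 84.9 and 69.3 CPM in cKO and 93.9 and 67.2 CPM in controls.

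Genes of thyroid hormone handling had a median of 0.17 over 16 tested members, with 11 higher and 5 lower. Klf9, a thyroid hormone-inducible factor gene, had 222 and 182 CPM in cKO and 99.9 and 133 CPM in controls (0.79, SE 0.21). The amino acid and thyroid hormone transporter genes differed in sign, with Slc7a5 at 0.71 (SE 0.20) and Slc7a8 at -0.70 (SE 0.25). Hr, a thyroid hormone-induced corepressor gene, had -0.48 (SE 0.31). Of 7 tested neuropeptide and galanin receptor genes 6 were higher (median 0.93, with 0.48 without control replicate 1 and 3.41 without control replicate 2), but apart from Gal most rested on few counts. The galanin receptor gene Galr1 had 96 and 41 counts in cKO and 0 and 12 in controls, Galr2 a log2 fold change of 0.40 (SE 0.75), Vip 1.47 (SE 2.78) and Nmu -1.48 (SE 2.17). The list of Edil3, its paralogue and the integrins had a median of 0.02 over 7 tested genes, 5 of them integrin genes. Of these Itgb1 had 0.17 (SE 0.17), Itgav -0.21 (SE 0.28), Itga5 -1.72 (SE 2.70) and the Edil3 paralogue Mfge8 0.10 (SE 0.49).

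Markers of other cells were measured in the same libraries. Corticotrope and melanotrope markers summed to 6415 and 7594 CPM in cKO and to 7618 and 10280 CPM in controls, with 8 of 9 lower in cKO. Pomc alone had 6032 and 7145 CPM in cKO and 7161 and 9813 CPM in controls, and Pcsk2 172 and 228 CPM in cKO and 222 and 184 CPM in controls. By CPM, Pomc stood above the gonadotrope hormone genes Cga and Lhb in all 4 libraries. Cga had 3448 and 4185 CPM in cKO and 6054 and 6137 CPM in controls, and Lhb had 2069 and 2245 CPM in cKO and 5144 and 4099 CPM in controls. Per exon length, Pomc was below both in control replicate 1 (5433 against 6346 and 7586 RPKM). The 8 pituitary stem cell markers summed to 111 and 139 CPM in cKO and to 76.1 and 78.4 CPM in controls. These sums were on the same side as Prl and Pou1f1, but of the 6 markers tested 3 were higher in cKO and 3 lower. S100b had no count in cKO and 41 counts in controls. Sox9 had 58.0 and 73.0 CPM in cKO and 24.4 and 27.4 CPM in controls, Sox2 had 23.7 and 22.1 CPM in cKO and 12.7 and 16.7 CPM in controls, and Fabp7 was at 0 in all 4. The part of other cell types in the levels of Prl, Gh, Tshb and Pou1f1 was not tested.

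Markers of cells outside the endocrine lineages were low. Endothelial markers summed to 20.5 and 11.5 CPM in cKO and to 29.1 and 34.5 CPM in controls, with Cdh5 at 12.2 and 5.40 CPM in cKO and 1.73 and 18.2 CPM in controls, and Pecam1 at 3.73 and 3.82 CPM in cKO and 15.8 and 4.68 CPM in controls. Among 7 tested endothelial markers 3 were higher in cKO and 4 lower, and Tek had no count in cKO and 151 counts in controls. Macrophage and leukocyte markers summed to 3.15 and 12.9 CPM in cKO and to 24.8 and 11.2 CPM in controls, with Cd68 (log2 fold change -0.71, SE 0.99) and Fcer1g (-1.27, SE 1.61) the highest and C1qa, C1qb and C1qc at 0 in all 4 libraries. Csf1r, Ptprc, Tyrobp and Adgre1 had no count in cKO and 40, 26, 9 and 8 counts in controls. Fibroblast and pericyte markers summed to 18.7 and 12.7 CPM in cKO and to 0.0909 and 19.0 CPM in controls, with Col1a2 (2.71, SE 1.92) and Rgs5 (1.58, SE 2.03) the highest. Of the 3 tested, 2 were higher in cKO and 1 was lower. Dcn, Col3a1, Pdgfrb, Pdgfra and Lum had no count in cKO and 85, 35, 34, 20 and 17 counts in controls. In control replicate 1, 7 of the 8 markers were at 0. Erythroid markers summed to 16.1 and 1.86 CPM in cKO and to 36.9 and 8.79 CPM in controls, with Hba-a2 (-1.33, SE 1.93) and Hba-a1 (-1.87, SE 2.06) the highest. Among 5 tested erythroid markers 1 was higher in cKO and 4 were lower, and Hbb-bt had no count in cKO and 60 counts in controls. The erythroid sums, like Gh, were lower in cKO replicate 2 than in cKO replicate 1, whereas in controls they were higher in replicate 1 and Gh in replicate 2.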

How the data were processed

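Poly(A) RNA of sorted gonadotropes was sequenced in 4 libraries, 2 cKO and 2 control, grouped by the sample titles. The authors deposited estimated counts per gene, not scaled between libraries, and the submitters' processing notes name STAR 2.5.1b, featureCounts 1.5.0-p1 and the build mm10. Fractional values made up 4.5% of the table. No label states the annotation release, the use of strand or how multiply mapped reads were shared.

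Identifiers were matched without their version to GENCODE M21 on mm10 (54495 of 54532). Counts were rounded, filtered with filterByExpr (minimum count 10, minimum total 15), scaled with TMM and tested across all genes with the quasi-likelihood F-test of edgeR 4.0.16 under R 4.3.3 (two-sided, group only, Benjamini-Hochberg adjusted p under 0.05). The SE is the log2 fold change divided by the square root of F. Ratios to Pou1f1 added 0.5 counts to each gene on the log2 scale. RPKM used the union of annotated exons, and profiles added 0.5 CPM before the log. Promoters of 5 of the 7 genes were in the RefSeq table.

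Alternatives were DESeq2 1.42.0, limma-voom in limma 3.58.1, other scalings and filters, edgeR's newer quasi-likelihood form, the replicate number as a block, and each library left out. Members and lists were chosen with earlier results of these data known. Named were the 7 genes, up to 4 further genes with the smallest p from each lineage or pathway list, the 2 most abundant of each list for other cells, and the 3 named genes (no Gm or Rik symbols, pseudogenes or bare identifiers) most like Prl, Pou1f1 and Gh. Any other gene was chosen after its values were seen, including Gata2, C1qa, C1qb, C1qc and Fabp7, given as checks of the cells, and Gm26512 and Tspan2, given for their overlap with Dio2 and Tshb.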

Additional observations from a re-analysis of the deposited data

How the results depend on the processing

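The count of 10 genes past the threshold became 253 without a filter, 3 with a filter of 1 CPM in at least 2 libraries, 963 with DESeq2, 256 with limma-voom, 47 with edgeR's newer quasi-likelihood form, and 66 to 681 with 1 library left out. Of the 7 genes described, 0 passed in the main test, 1 without a filter, 4 with DESeq2, 2 with limma-voom, 1 with the newer form, and 1 to 2 with 1 library left out. Prl passed with a log2 fold change of 1.49 without a filter (adjusted p = 5.05e-11), 1.51 with DESeq2, 1.47 with limma-voom and 1.47 with the newer form, and with 1.11 to 2.02 when 1 library was left out. DESeq2 also called Dio2 (0.89), Gal (0.99) and Edil3 (1.87), and limma-voom called Gh (-1.02), whose value ran from -2.18 to 0.29 over the fits that each lacked a library, as that of Pou1f1 did from 1.06 to 2.38. In those fits 1 group is a single library, assumed to vary like the other. The cause of these shifts was not tested. The log2 ratio differences ran, with 1 library left out, from -0.35 to 0.04 for Prl, -3.75 to -1.37 for Gh, -3.99 to -1.99 for Tshb and -0.74 to 1.04 for Edil3 against Pou1f1, and from -3.66 to -1.16 for Gh against Prl. Same-numbered samples did not deviate together (correlation -0.011), and the replicate block left 7 genes called and Prl at 1.56 (adjusted p = 0.0988). Other scalings changed no call among the 7.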
